A study of Mus musculus with 12 samples.

Results

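The oligoadenylate synthetase (OAS) family is the set of interferon-induced enzymes and enzyme-like proteins that sense double-stranded RNA. The 6 members described here are Oas1a, Oas1b, Oas2, Oas3, Oasl1 and Oasl2, each represented by the brightest probe set that carries its symbol alone. They were chosen by name as a gene family, with earlier results of these data known, as were the gene lists below. Counts of members or listed genes against all genes are therefore descriptions and not independent evidence. All 6 members were among the 15273 genes tested. The values are log2 signals from 12 Affymetrix arrays of primary microglia (brain macrophages) from mice, with 3 arrays in each of 4 groups. Wild-type (control) microglia and microglia labelled TLR4 knockout were held for 24 h in low oxygen or low glucose, called ischemia here, or under control conditions. Every culture, controls included, was then returned to normal conditions for 24 h, so all arrays show cells after this recovery. Tlr4 is the receptor for bacterial lipopolysaccharide. The labels used here do not give the strain, age or sex of the mice or the kind of Tlr4 alteration, and do not say that replicate arrays hold separate cultures. The p-values thus cover only the spread from array to array, which may be technical.

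OAS enzymes bind double-stranded RNA and join adenosine units into short oligoadenylates. These act as signals of the antiviral response, which limits protein synthesis and viral growth. The genes are transcribed at a low level in resting cells, and type I interferon raises them through transcription factors, Stat2 and Irf9 among them, that bind interferon-stimulated response elements. In microglia and other macrophages they belong to the general antiviral program.

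Some facts about the arrays bear on every value below. The lowest correlation within a group was 0.976 (35557 probe sets), and precision is limited by how few arrays there are. The wild-type ischemia arrays carry a source name that reads as control conditions, whereas hypoxia is given by their titles, which were followed, and by the design key. Tlr4 itself read 8.74 ± 0.18 (SD, n = 6) in wild-type arrays and 8.71 ± 0.22 (SD, n = 6) in the knockout-labelled arrays, from 1 probe set that checks nothing if it lies outside the altered part. Each direction between genotypes below therefore rests on the labels. Of 10 microglia markers, 9 were measured and all 9 passed the filter on dim genes, and their mean signal was 8.39 to 9.06. The mean of 8 muscle markers was 5.88 to 6.14, against a cut of 5.36 for dim genes; they were measured because the extraction text names another cell type. Wild-type arrays numbered 2 stood apart in both conditions, with means of 9.05 and 9.06 for the microglia markers while the remaining wild-type arrays had 8.44 to 8.68. For monocyte and border-associated macrophage markers (9 of 10 measured) they read 7.44 and 7.46, against 6.81 to 7.13. The part of this difference in the values below was not tested, and values without those arrays are given.

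The family lies on chromosome 5 in 2 runs. In the gene table (GRCm38.p6, used for names and order only), Oasl2 and Oasl1 form a run of 2 genes, and Oas2, Oas3, Oas1e, Oas1c, Oas1b, Oas1f, Oas1h, Oas1g, Oas1a and Oas1d follow each other in a run of 10. RefSeq promoter windows, 250 bases before to 50 after the gene start, were matched for 4 of the 6 members. The windows of Oas1a, Oas3 and Oasl1 are shown because they hold motifs for interferon-responsive factors. Capitals mark every match, on either strand, to the core of the interferon-stimulated response element (ISRE), searched as GAAA, any 2 bases and GAAA, or to AANNGAAA, a half-site core of interferon regulatory factors that each ISRE core match also contains.
Oas1a, chr5:120907476-120907775, minus strand, GRCm38.p6: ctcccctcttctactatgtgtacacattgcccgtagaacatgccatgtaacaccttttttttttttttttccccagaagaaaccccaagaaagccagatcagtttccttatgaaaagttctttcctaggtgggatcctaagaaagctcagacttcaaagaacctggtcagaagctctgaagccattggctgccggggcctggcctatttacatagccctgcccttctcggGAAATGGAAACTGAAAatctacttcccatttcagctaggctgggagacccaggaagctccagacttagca
Oas3, chr5:120777610-120777909, minus strand, GRCm38.p6: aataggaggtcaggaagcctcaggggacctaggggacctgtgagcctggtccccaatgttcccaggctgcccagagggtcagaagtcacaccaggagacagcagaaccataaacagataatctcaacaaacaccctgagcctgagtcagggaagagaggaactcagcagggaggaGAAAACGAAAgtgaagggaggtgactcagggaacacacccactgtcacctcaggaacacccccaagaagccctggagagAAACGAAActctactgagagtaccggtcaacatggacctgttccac
Oasl1, chr5:114922990-114923289, plus strand, GRCm38.p6: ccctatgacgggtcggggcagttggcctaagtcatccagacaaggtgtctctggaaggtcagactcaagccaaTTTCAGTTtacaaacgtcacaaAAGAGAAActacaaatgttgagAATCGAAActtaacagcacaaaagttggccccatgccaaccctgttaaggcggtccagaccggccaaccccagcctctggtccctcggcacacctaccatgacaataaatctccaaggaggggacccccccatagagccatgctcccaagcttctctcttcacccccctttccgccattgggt

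The Oas1a window held 2 overlapping ISRE core matches just before the start. The Oas3 window held 1 such match and 1 further AANNGAAA match, and the Oasl1 window held 3 AANNGAAA matches, 1 of them on the opposite strand, with no ISRE core match. The window of Oasl2, not shown, held neither motif. Oas1a, Oas3 and Oasl2 rose after ischemia in the wild type when same-numbered arrays were paired, and 0 members passed without pairing (below). No link between motif and response was tested. Over all 32851 promoter windows, 3.44% held the ISRE core and 23.9% held AANNGAAA. A match is a description of letters and was not tested as a binding site.

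The first comparison was ischemia against control in wild-type microglia. Oas1a, Oas2, Oas3 and Oasl2 rose after ischemia when same-numbered arrays were paired, by 1.89-fold, 2.01-fold, 2.89-fold and 2.21-fold. Oas1b was 1.55-fold higher and Oasl1 1.19-fold higher without passing the test. All 6 members were above 0, with a median log2 change of 0.96, where the median of all genes tested was 0.01 and 52.4% were above 0.

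Oas3, the largest family member, built of several synthetase units and known for binding long double-stranded RNA, had the largest change of the 6. Its log2 signal was 7.17, 9.47 and 8.05 in wild-type control arrays 1, 2 and 3 and 9.35, 11.13 and 8.80 in ischemia arrays 1, 2 and 3. Every ischemia array lay above the control array of its number, by 2.18, 1.66 and 0.75, while the groups as a whole overlapped because control array 2 lay above ischemia arrays 1 and 3. Oasl2, a ubiquitin-like-domain member that keeps synthetase activity in the mouse, read 8.30, 10.70 and 8.86 in control and 10.25, 11.25 and 9.79 after ischemia. Its pairs rose by 1.96, 0.55 and 0.93, again with the groups overlapping through control array 2.

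Oas2, an enzyme made of a pair of synthetase units, read 7.07, 9.13 and 7.80 in control arrays and 8.64, 9.85 and 8.51 after ischemia. Its pair changes were 1.58, 0.72 and 0.71. Oas1a, a small, catalytically active enzyme, read 7.71, 8.80 and 8.10 in control arrays and 9.01, 9.71 and 8.64 after ischemia. Its pair changes were 1.30, 0.91 and 0.55, so these 4 members were higher in 3 of 3 wild-type pairs, as were 25.8% of all genes tested.

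The remaining pair of members followed only some of the arrays. Oas1b, which is known as a flavivirus resistance gene and is listed as a transcribed pseudogene in the gene table, read 5.47, 6.40 and 5.88 in control arrays and 6.59, 7.26 and 5.81 after ischemia. Pairs 1 and 2 were higher by 1.11 and 0.86, and pair 3 changed by -0.07. Oasl1 lacks synthetase activity and is known to hold back translation of Irf7 messenger RNA. It read 7.12, 7.20 and 7.10 in control arrays and 7.11, 7.96 and 7.10 after ischemia, so that ischemia array 2 alone was high. For 0 of the 6 members did the wild-type ischemia group lie wholly above the control group, as it did for 9.38% of all genes. Its pair changes were -0.0026, 0.76 and -0.0043.

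**Figure D1:**
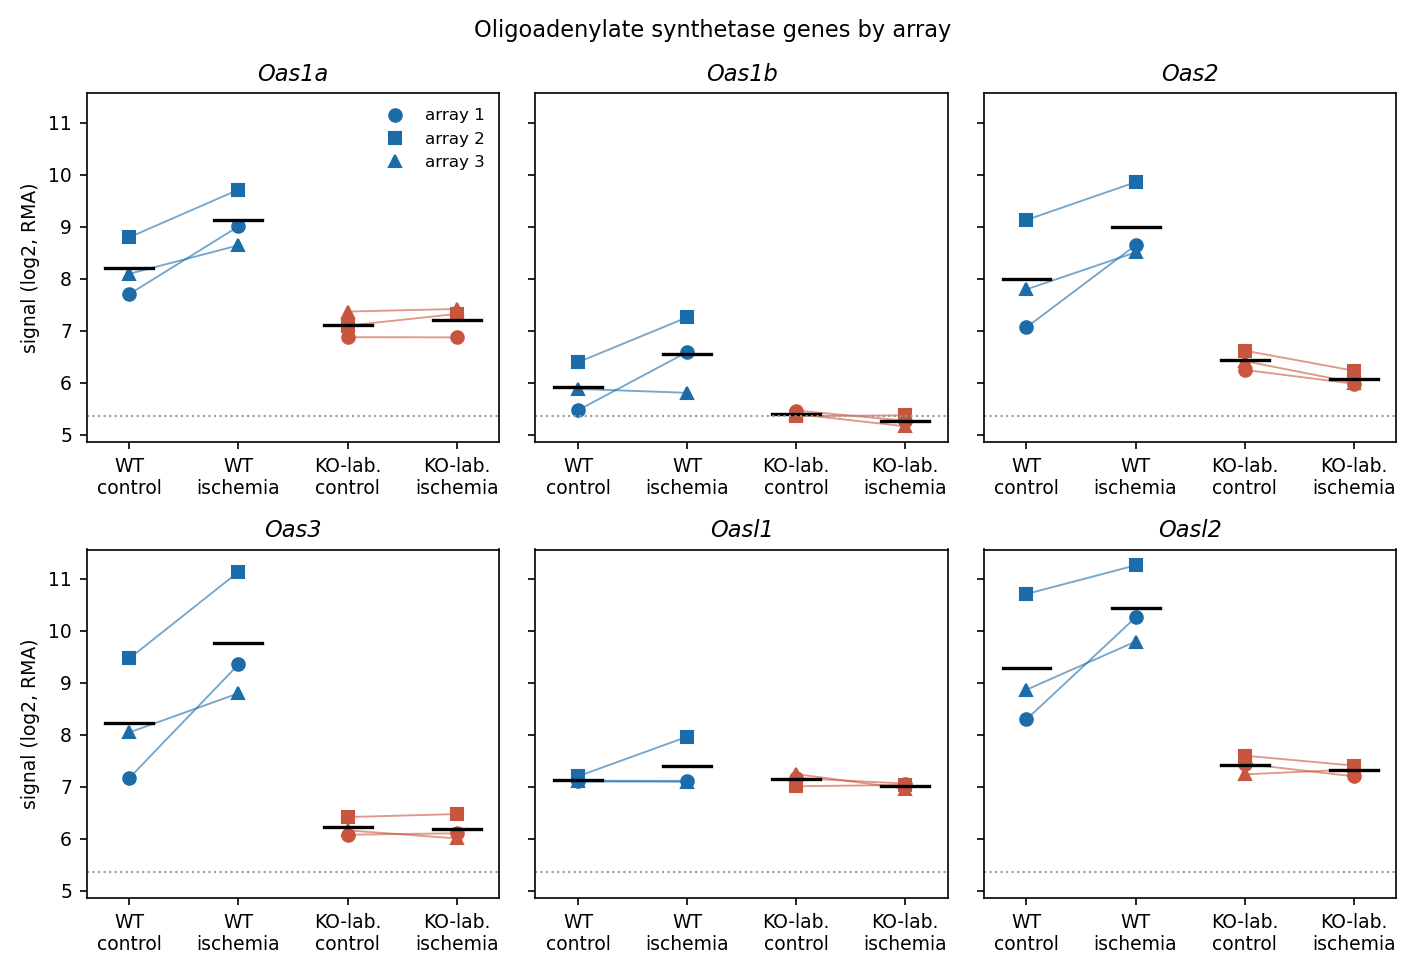
Log2 RMA signal of each member on the vertical axis in the groups (WT, wild type; KO-lab., knockout-labelled), with 1 symbol per array number, lines joining same-numbered arrays and black bars for group means (n = 3); the dotted line is the dim-gene cut of 5.36. Oas1a, Oas2, Oas3 and Oasl2 rise along every wild-type line and lie lower in the knockout-labelled arrays. There Oas2 falls along all 3 lines and Oas1a, Oas3 and Oasl2 change little, while Oasl1 is high in 1 wild-type array.

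In the fit without pairing, limma called 0 of the 6 members at an adjusted p under 0.05, with 4 of 6 at an unadjusted p under 0.05. Of all genes, that fit called 0.0131%, and 14.7% had an unadjusted p under 0.05. The log2 change of Oas3 was 1.53 (SE 0.57, 95% interval 0.30 to 2.76, limma adjusted p = 0.286), and adjusted p-values of the others were 0.271 to 0.515. Same-numbered arrays of a genotype deviated together over all genes, so the change was also fitted with a replicate block within genotype, the paired fit. This called 4 of 6 members, where it called 3.73% of all genes and 2.99% in the upward direction. The limma paired-fit adjusted p was 0.000566 for Oas3 (SE 0.18), 0.00122 for Oas1a (SE 0.12), 0.00169 for Oas2 (SE 0.14) and 0.00493 for Oasl2 (SE 0.19). It was 0.0521 for Oas1b and 0.270 for Oasl1. With the replicate block and only the 6 wild-type arrays, the same 4 members passed, where 2.44% of all genes rose (limma adjusted p = 0.00490, 0.00643, 0.00996 and 0.0204 for Oas3, Oas1a, Oas2 and Oasl2).

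Both wild-type arrays numbered 2 were the highest of their group for 6 of 6 members, as for 22.4% of all genes tested. Without them the paired fit still called 4 members, and 488 of all 15273 genes, with a median log2 change of 1.03 over the 6 members. Markers of several cell types also passed in this limma paired fit. Of 9 microglia markers 1 rose (Aif1, 0.52), with 3 below 0 (list median 0.02). Of 6 monocyte and border-associated macrophage markers 2 rose (Pf4, 0.70, and Clec12a, 0.52), with 2 below 0 (list median 0.07). Of 7 oligodendrocyte markers 1 rose (Cnp, 0.43), and the other 6 were below 0 (list median -0.05). Of fibroblast and mural, astrocyte and neuron markers 0 passed, and 5 of 5, 4 of 6 and 3 of 3 were below 0 (medians -0.32, -0.21 and -0.12). Without pairing 4 of the 5 fibroblast and mural markers had an unadjusted limma p under 0.05, against 14.7% of all genes. Of 3 endothelial markers Flt1 rose by 0.42 and Cldn5 fell by 0.41. In the knockout-labelled arrays the same fit called 1 of 9 microglia markers lower (Cx3cr1, -0.61), and 6 of the 9 were below 0. It called 1 of 6 monocyte and border-associated macrophage markers higher (Pf4, 0.58), while 3 of the 6 were below 0, with Ms4a7 at -0.59. It also called 1 of 3 endothelial markers higher (Flt1, 0.55), and all 3 were above 0. Pf4 and Flt1 thus passed in both genotypes, where 0.648% of all genes were called in the knockout-labelled arrays. The part of these markers in the OAS result was not tested. Without pairing, the median was 0.60 without ischemia array 2 and 0.59 without control array 1. Leaving out control array 2 gave 1.39 and 1 member called (Oasl2, limma adjusted p = 0.0399), where 79 of all 15273 genes were called. The Oasl1 change was -0.03 without ischemia array 2, so its positive value rests on that array.

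**Figure D2:**
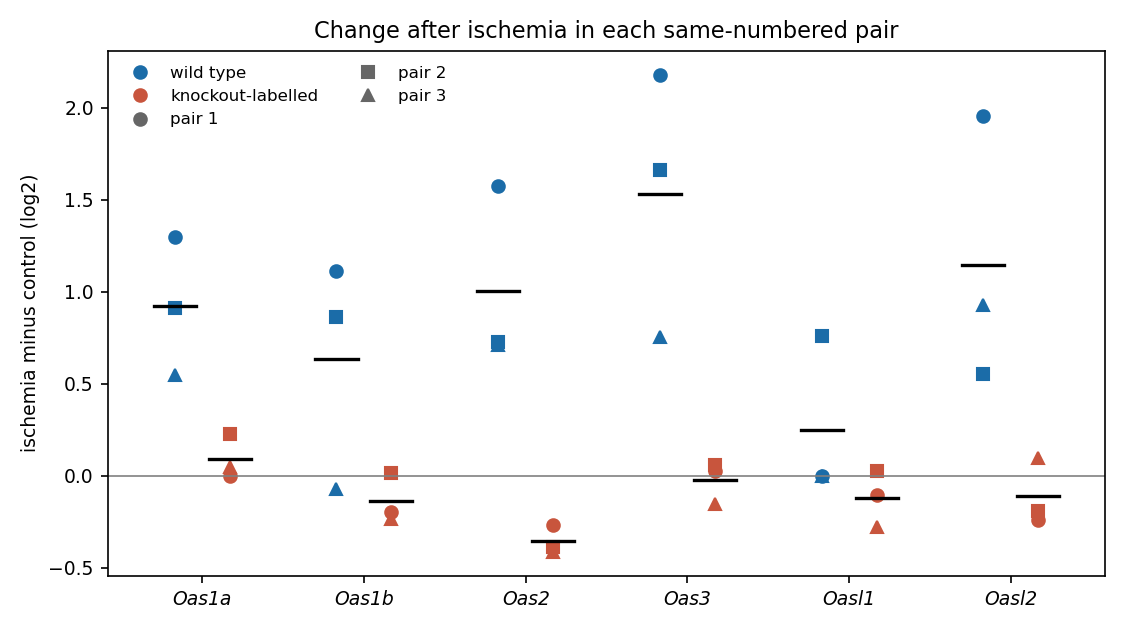
Ischemia minus control (log2) for each same-numbered pair of arrays, wild type in blue and knockout-labelled in red, with black bars for the mean of 3 pairs. The wild-type pairs of Oas1a, Oas2, Oas3 and Oasl2 lie between 0.55 and 2.18, above every knockout-labelled pair of the same gene.

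Next, ischemia was compared with control in knockout-labelled microglia. No rise of the family was detected there: the median log2 change was -0.12, with 1 of 6, Oas1a, above 0, as were 49.8% of all genes. Oas3 read 6.08, 6.42 and 6.16 in control arrays and 6.11, 6.48 and 6.01 after ischemia, with pair changes of 0.03, 0.06 and -0.15. Oasl2 read 7.44, 7.60 and 7.24 in control arrays and 7.20, 7.41 and 7.33 after ischemia, so pairs 1 and 2 were lower and pair 3 slightly higher. Oas1a read 6.88, 7.10 and 7.37 in control arrays and 6.87, 7.32 and 7.42 after ischemia, and the groups overlapped.

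Oas2 was the member that moved most, and it was lower. It read 6.25, 6.62 and 6.42 in control arrays and 5.98, 6.23 and 6.01 after ischemia. Its pairs changed by -0.27, -0.39 and -0.41, and every ischemia array lay below every control array, as for 6.36% of all genes. It was the 1 member lower in all 3 knockout-labelled pairs (18.7% of all genes) and so the 1 member higher in all wild-type and lower in all knockout-labelled pairs (2.02%). Oas1b read 5.47, 5.36 and 5.40 against 5.27, 5.38 and 5.17, at the level of the dim-gene cut. Oasl1 read 7.17, 7.01 and 7.24 against 7.06, 7.04 and 6.97.

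Limma called 0 of 6 members in either fit, with 0 at an unadjusted p under 0.05 without pairing and 1, Oas2, in the paired fit. Over all genes these fits called 0.0% and 0.648%, with 8.73% at an unadjusted p under 0.05 without pairing. The Oas2 log2 change was -0.36 (paired-fit SE 0.14, limma adjusted p = 0.200). The paired-fit 95% intervals were -0.18 to 0.36 for Oas1a, -0.42 to 0.37 for Oas3 and -0.52 to 0.29 for Oasl2. The intervals without pairing were wider, -1.25 to 1.20 for Oas3 and -1.18 to 0.95 for Oasl2. In both fits the upper end for these genes lay below the mean wild-type change of the same gene. That mean has its own error, and without pairing the Oas3 intervals of both genotypes overlapped. A direct test of the difference follows.

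The difference of the ischemia effects was then tested directly. Oas2 and Oas3 responded less in the knockout-labelled cells by -1.36 and -1.55 on the log2 scale in the paired fit (SE 0.20 and 0.26, limma adjusted p = 0.00978 and 0.0210). Oas1a (-0.83, adjusted p = 0.0906) and Oasl2 (-1.26, adjusted p = 0.0899) did not pass, nor did Oas1b (-0.77) and Oasl1 (-0.37). The paired fit called 0.308% of all genes, 0.295% in this direction. All 6 differences were below 0, where 51.6% of all genes were above it. Without pairing 0 of 6 members passed (limma adjusted p = 1.00 for each), 1 had an unadjusted p under 0.05, and 0.0% of all genes were called, with 2.9% at an unadjusted p under 0.05. For 4 members, Oas1a, Oas2, Oas3 and Oasl2, every wild-type pair changed more than every knockout-labelled pair, as for 8.14% of all genes. Without wild-type pair 3 the paired fit called 4 members, Oas1a, Oas1b, Oas2 and Oas3. Without wild-type pair 1 it called Oas2 and Oas3, and without pair 2 it called Oas2 and Oasl2. Without any 1 knockout-labelled pair it called Oas2 alone, so the call of Oas3 was lost in 4 of these 6 fits. Of all 15273 genes tested, these fits called 26, 30 and 49 without wild-type pair 1, 2 or 3. They called 25, 20 and 27 without knockout-labelled pair 1, 2 or 3.

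The third comparison set the genotypes side by side in control cells. All members but Oasl1 (1 of 6 above 0, against 50.8% of all genes) were lower in the knockout-labelled arrays, by a log2 difference of -2.01 for Oas3, -1.86 for Oasl2, -1.57 for Oas2, -1.08 for Oas1a and -0.51 for Oas1b. In fold terms the mean wild-type signal was 4.02 times that of the knockout-labelled arrays for Oas3 and 3.63 times for Oasl2. Oasl1 differed by 0.00083, at 7.14 ± 0.054 (SD, n = 3) and 7.14 ± 0.12 (SD, n = 3).

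For these 5 members every knockout-labelled control array lay below every wild-type one, as for 4.52% of all genes tested. The highest knockout-labelled value of Oas2 was 6.62 and the lowest wild-type value 7.07. For Oas1b these values met at 5.47 after rounding, near the dim-gene cut. Oas1b passed that cut on its mean over all arrays, which its wild-type signals raised, so its separation is partly tied to the filter. None of the 6 members passed in limma (adjusted p = 0.498 for Oasl2, 0.529 for Oas1a, 0.540 for Oas2 and Oas3), 4 of 6 had an unadjusted p under 0.05, and 0.0589% of all genes were called (0.0524% lower), with 7.14% at an unadjusted p under 0.05. Without wild-type control array 2, the median difference was -0.89 against -1.33 with all arrays, and 0 members were called.

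The fourth comparison asked the same after ischemia. Oas1a, Oas2, Oas3 and Oasl2 were lower in the knockout-labelled arrays and passed the test, and each of the 6 members differed more than it had in control cells. Oas3 differed by -3.56 (SE 0.57, limma adjusted p = 0.0127), so its mean wild-type signal was 11.8 times the knockout-labelled one. Oasl2 differed by -3.12 (SE 0.49, adjusted p = 0.0123), Oas2 by -2.93 (SE 0.43, adjusted p = 0.00828) and Oas1a by -1.91 (SE 0.29, adjusted p = 0.0107) in limma. Oas1b, at -1.28 (SE 0.29, limma adjusted p = 0.0848), and Oasl1, at -0.37, did not pass.

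All 6 members had every knockout-labelled ischemia array below every wild-type one, as for 8.07% of all genes, and limma called 0.714% of all genes, 0.648% lower. None of the 6 was above 0, against 52.7% of all genes, and 5 of 6 had an unadjusted p under 0.05, against 8.35%. The ranges were far apart for Oas3, whose highest knockout-labelled value was 6.48 and lowest wild-type value 8.80. They nearly met for Oasl1, at 7.06 and 7.10. The knockout-labelled mean of Oas1b after ischemia was 5.27, under the dim-gene cut, so its separation is partly tied to the filter here too. Microglia and macrophage markers went both ways in this comparison. Of 9 microglia markers 4 were above 0 and 5 below (median -0.07). The 6 monocyte and border-associated macrophage markers split 3 and 3 (median -0.08). Aif1 and Ms4a7 had the lowest differences of their lists, -1.55 and -1.02. Aif1 read 8.73 ± 0.91 (SD, n = 3) in wild-type and 7.18 ± 0.20 (SD, n = 3) in knockout-labelled ischemia arrays, and Ms4a7 10.19 ± 0.43 (SD, n = 3) and 9.17 ± 0.46 (SD, n = 3). Limma called 0 of 9 microglia and 0 of 6 monocyte and border-associated macrophage markers without pairing (adjusted p = 0.244 for Aif1 and 0.228 for Ms4a7), and 1 of each list lower with a block shared by both genotypes. With that shared block 5 of the 6 OAS members were called lower, as were 1.37% of all genes. The part of these markers in the genotype difference was not tested. The 4 calls held with only the 6 arrays compared in the fit and without any 1 wild-type ischemia array. Without knockout-labelled ischemia array 1 no member passed (limma adjusted p from 0.0610 for Oas2 to 0.0796 for Oas3 among the 4), although the differences were -1.75 to -3.52, and without array 3 only Oas1a passed (adjusted p = 0.0446). Of all 15273 genes, 25 were called without knockout-labelled ischemia array 1 and 31 without array 3.

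Over both conditions, all 6 knockout-labelled arrays lay below all 6 wild-type arrays for 5 of the 6 members, Oasl1 being the exception, where 1.09% of all genes showed this. The 5 members thus had, after ischemia, lower knockout-labelled signals than in any wild-type control array. Oas1b is a weaker case among them. Its knockout-labelled arrays read 5.17 to 5.47, around the dim-gene cut of 5.36, and its wild-type arrays carried its mean over all arrays, 5.79, past that cut. Its separation is thus partly tied to the filter. Genotype was not separated from other differences between the mouse sources, which the labels used here do not describe, so genotype and source cannot be told apart. In bulk RNA, fewer cells with a high level and less RNA per cell cannot be told apart either.

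**Figure D3:**
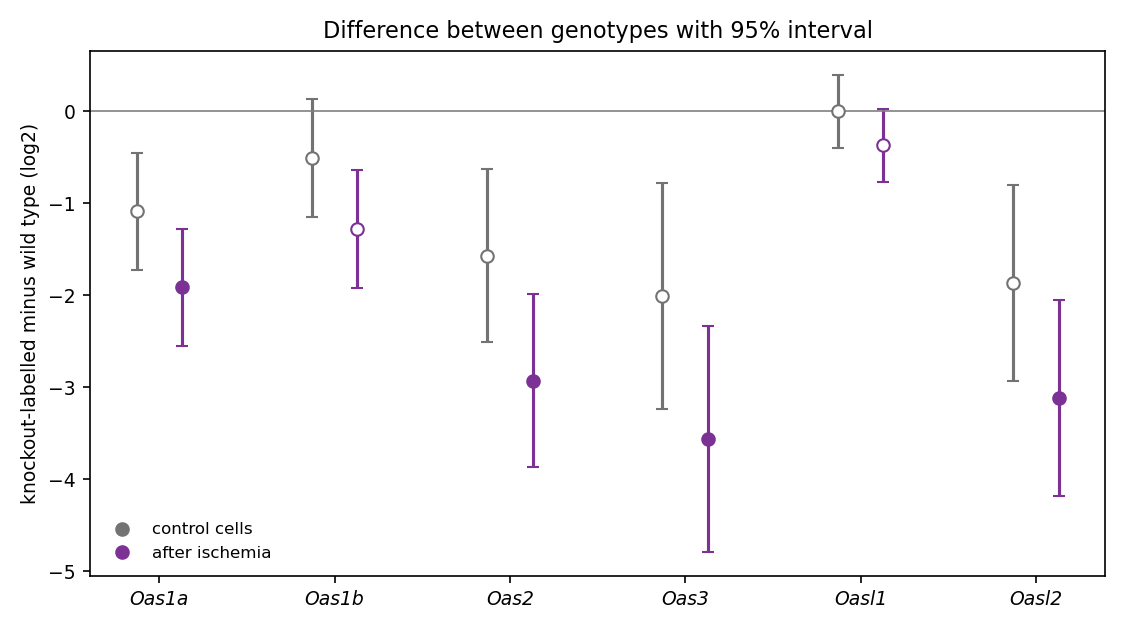
Knockout-labelled minus wild type (log2) for each member in control cells (grey) and after ischemia (purple), as estimates with 95% intervals from limma without pairing (n = 3 arrays a group); filled points passed at an adjusted p under 0.05. Differences after ischemia run from -0.37 for Oasl1 to -3.56 for Oas3, and filled points appear only after ischemia.

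The members also differed in spread. The SD over wild-type arrays was larger than over knockout-labelled arrays in both conditions for 5 of 6 members, again without Oasl1, as for 27.1% of all genes. For Oas3 it was 1.16 in wild-type control and 1.22 in wild-type ischemia arrays, against 0.18 and 0.25 in the knockout-labelled ones. For Oasl2 it was 1.26 and 0.75 against 0.18 and 0.10. Wild-type arrays numbered 2 enter these SDs. After ischemia Oas2 read 8.64 and 8.51 in wild-type arrays 1 and 3 and 9.85 in array 2. Oas1a read 9.01 and 8.64 in wild-type ischemia arrays 1 and 3 and 9.71 in array 2. The wild-type spread of Oas2 and Oas1a after ischemia thus leans on array 2. The part of array 2 in the other SDs was not tested. As a description over the 12 arrays, each member was correlated with the mean of the other 5: r was 0.997 for Oas3, 0.988 for Oas2, 0.985 for Oasl2, 0.976 for Oas1a, 0.956 for Oas1b and 0.666 for Oasl1. These arrays share groups and same-numbered pairs, so the values mostly restate the group pattern.

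The other Oas1 paralogs lie among the members on the chromosome and mostly stayed dim. Oas1d, Oas1e and Oas1h had group means below the dim-gene cut, at 4.04 to 4.54, and Oas1g had no probe set of its own. Of the 2 that were tested, Oas1c rose in the wild type by 0.56 in the paired fit (limma adjusted p = 0.0216), with pair changes of 0.80, 0.69 and 0.18. In the knockout-labelled arrays its value was -0.12. Oas1f had 0.12 and -0.13 and passed in neither genotype. Near-identical paralogs can share probe sequence, so signals of the Oas1 genes are uncertain as measures of 1 gene each.

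Genes that act with or beside the OAS enzymes were taken from a fixed list, of which 10 were tested. Like the lists that follow, it was chosen with earlier results of these data known. In wild-type cells 9 of 10 were above 0 (median 0.22), against 52.4% of all genes. The paired fit called 4 higher and 0 lower, against 2.99% of all genes higher. Without pairing, and with a block shared by both genotypes, limma called 0 of 10. Zbp1, a sensor of left-handed nucleic acids, rose by 1.48 (limma paired-fit adjusted p = 1.18e-05). Eif2ak2, the double-stranded RNA-activated kinase PKR that halts translation, rose by 0.69 (adjusted p = 0.0127), and Adar, which edits adenosines in double-stranded RNA, rose by 0.50 (adjusted p = 0.0137) in the same limma fit. Samhd1, a nucleotide phosphohydrolase, rose by 0.47 (adjusted p = 0.0161). Pde12, which degrades oligoadenylates, had a change of 0.0020, and Abce1, a ribosome recycling factor, had -0.08. In the knockout-labelled arrays 0 of 10 passed and the median was 0.02, with Abce1 at 0.42 (limma paired-fit adjusted p = 0.0742) and Eif2ak2 at 0.37 (adjusted p = 0.162).

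Genes of RNA sensing mostly moved with the family in the wild type. Of 5 tested, 4 rose in the paired fit of limma: Dhx58 (1.34), Ddx58, which encodes RIG-I (0.98), the endosomal receptor Tlr3 (0.79) and Ifih1, which encodes MDA5 (0.72). Mavs, the adaptor of RIG-I and MDA5, had 0.09. The background was again 2.99%, and limma called 0 of 5 without pairing or with the shared block. Without pairing 4 of 5 had an unadjusted p under 0.05, against 14.7% of all genes. In the knockout-labelled arrays 0 of 5 passed, with a median of 0.22 and Ddx58 at 0.31. The difference of the ischemia effects passed for Dhx58 alone among these 5 (-1.22, limma paired-fit adjusted p = 0.00747). That fit called 0.308% of all genes for the difference.

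On the path from interferon to OAS promoters, 11 listed genes were tested. Ifnb1, the interferon-beta gene, was below the dim-gene cut, at 5.01 ± 0.13 (SD, n = 3) in wild-type control and 4.75 ± 0.155 (SD, n = 3) in wild-type ischemia arrays. In the wild type 5 of 11 rose in the paired fit of limma: Irf7 (1.63), an interferon-induced driver of interferon genes, Usp18 (1.48), a feedback brake on the receptor, Stat2 (0.89), Irf1 (0.61) and Irf9 (0.46). The receptor chains Ifnar1 (0.06) and Ifnar2 (0.30), the kinases Jak1 (0.02) and Tyk2 (0.16), Irf3 (0.19) and Socs1 (-0.29) did not pass. The paired fit called the same 2.99% of all genes higher, and 0 of 11 passed without pairing or with the shared block. Without pairing 6 of 11 had an unadjusted p under 0.05, against 14.7% of all genes. In the knockout-labelled arrays 0 of 11 passed, and the median was -0.06. After ischemia limma without pairing called 5 of these 11 lower in knockout-labelled than wild-type arrays, the largest difference being Irf7 at -3.94 (adjusted p = 0.0108). Of the RNA-sensing genes it called 2 of 5 lower and of the OAS partners 2 of 10, where 0.648% of all genes were called lower. Among these partners Zbp1 was at -2.58 (limma without pairing, adjusted p = 0.00693).

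**Figure D4:**
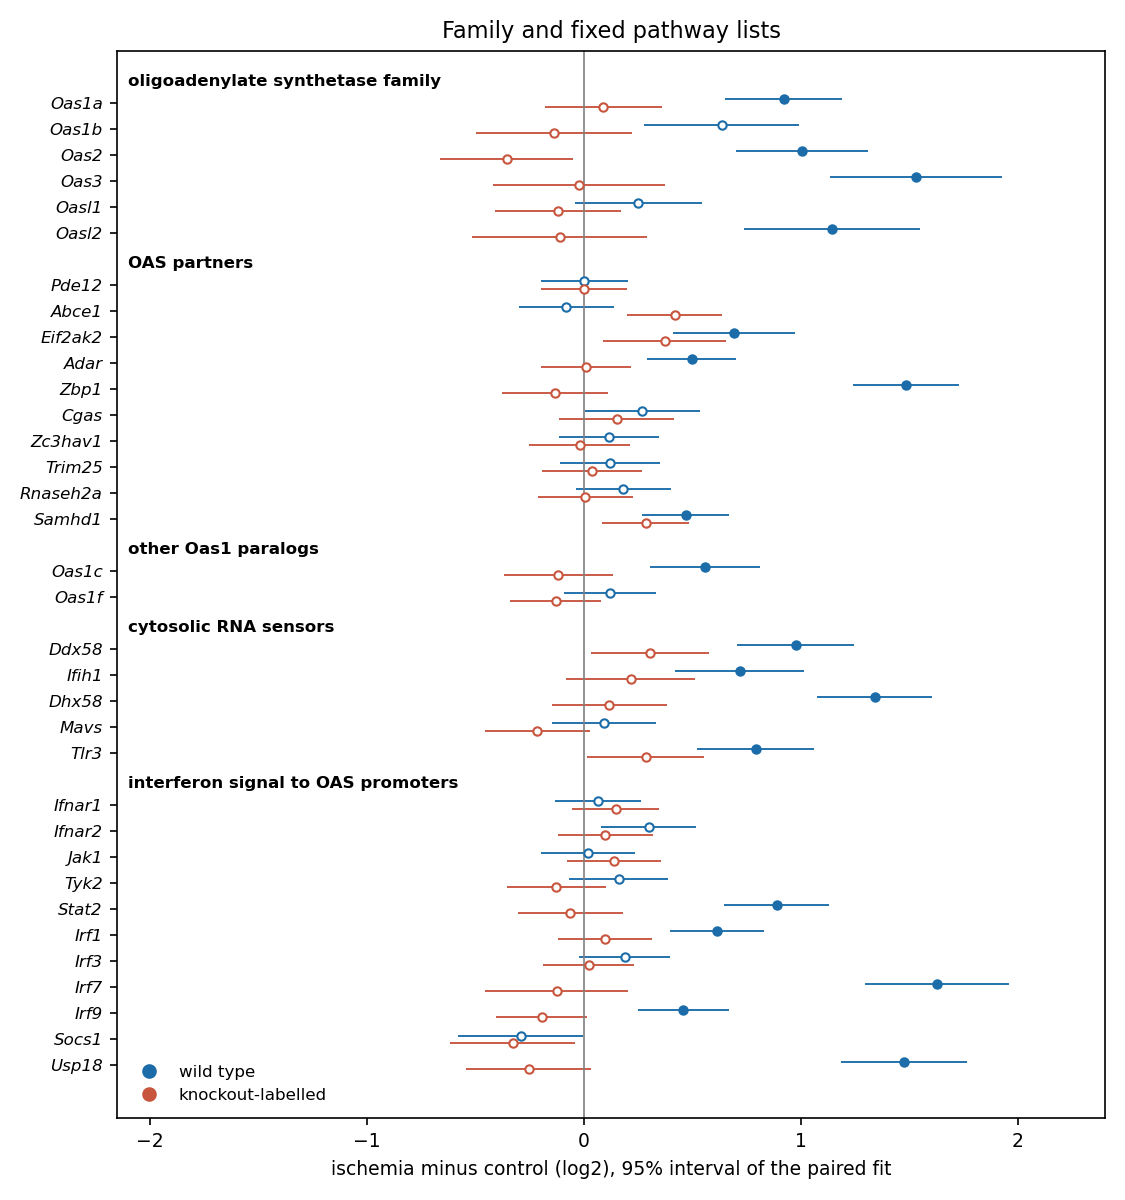
Ischemia minus control (log2) with the 95% interval of the paired fit for the family and for the tested genes of 4 fixed lists, wild type in blue and knockout-labelled in red; filled points passed at an adjusted p under 0.05. Filled points are all wild type, among them 4 of 6 OAS members, 4 of 10 OAS partners, 4 of 5 RNA-sensing genes and 5 of 11 genes of the interferon path.

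Outside the family, the 8 tested genes whose pattern over the 12 arrays was most like the mean of the 6 members were Irf7 (r = 0.996), Cmpk2 (0.996), Xaf1 (0.994), Sp100 (0.991), Ifit1 (0.991), H2-T24 (0.991), Stat2 (0.990) and Irf9 (0.988). Their wild-type changes after ischemia ran from 0.46 for Irf9 to 1.80 for Ifit1, and their knockout-labelled ones from -0.53 for Ifit1 to 0.06 for Sp100. The knockout-labelled means of Ifit1 were 5.38 in control and 4.85 after ischemia, around the dim-gene cut of 5.36. Its knockout-labelled change is thus one of dim signals. The r describes 12 arrays that share groups and pairs and carries no test.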

How the data were processed

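The authors deposited log2 signals per probe set, made with RMA in Affymetrix Expression Console 1.1 per the submitters' processing notes, for 12 Mouse Gene ST arrays. RMA subtracts background, equalises the distributions of arrays and summarises probes, which can shrink differences that shift most genes one way. The extraction text in the labels names myocytes. Of 35557 probe sets, 21789 carried 1 gene symbol in the platform annotation, 1621 several and 12147 were not listed; 21698 matched the gene table. The brightest probe set stood for a gene, and genes with a mean under the 30th percentile (5.36) were left out, leaving 15273. Group means over all 12 arrays were fitted with limma 3.58.1 in R 4.3.3, with Benjamini-Hochberg adjustment over all genes tested. Differences are of log2 values, and folds are their antilogs. Arrays were grouped by their titles.

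A replicate block was fitted too. The check of pairing correlated same-numbered arrays' deviations from their group means: r was 0.485, 0.735 and 0.478 in the wild type and 0.356, 0.316 and 0.490 in the knockout-labelled arrays, but -0.332 to 0.326 between genotypes. Different-numbered arrays of a genotype reached 0.399 (wild-type control 1 with ischemia 3) and 0.219 (knockout-labelled control 1 with ischemia 2), and were otherwise 0.116 or lower. The numbers were therefore taken to pair arrays within a genotype only. Named genes were the 6 members, the genes of the fixed lists and the 8 genes most like the family mean. The members and lists were chosen with earlier results of these data known. Alternatives were other normalizations, filters, probe set rules and blocks, and leaving out arrays. The procedure was tested on simulated data.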

Additional observations from a re-analysis of the deposited data

Results flagged for a closer look

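The difference of the ischemia effects, knockout-labelled minus wild type, passed in the limma paired fit for a pair of members, Oas2 (-1.36) and Oas3 (-1.55). Among listed genes it also passed for Zbp1 (-1.62), Dhx58 (-1.22), Irf7 (-1.75), Stat2 (-0.95) and Usp18 (-1.73). The paired fit called 0.308% of all genes for this difference. Without pairing none of these 7 passed.

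For some genes all 3 wild-type pairs moved one way and all 3 knockout-labelled pairs the other; this opposite movement was not itself tested. Oas2 had a mean wild-type pair change of 1.00 and a knockout-labelled one of -0.36, and the paralog Oas1c 0.56 and -0.12. The interferon-path genes were Irf7 (1.63 and -0.13), Irf9 (0.46 and -0.19) and Usp18 (1.48 and -0.25). Zbp1 had 1.48 and -0.13. Among cell-type markers, Aif1 (0.52 and -0.20), Cnp (0.43 and -0.15) and Csf1r (0.09 and -0.13) showed the same pattern. Abce1 moved the other way, with -0.08 (wild type) and 0.42 (knockout-labelled). Higher in all 3 wild-type and lower in all 3 knockout-labelled pairs was seen for 2.02% of all genes tested.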

How the results depend on the processing

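The replicate block decided the ischemia calls. In the wild type 0 members passed without it and 4 with it, over all arrays or over arrays of 1 genotype; a block shared by both genotypes gave 0. For the difference of the ischemia effects the counts were 0 and 2. Chosen after seeing the data, paired fits without 1 pair called 4, 4 and 5 members in the wild type, and 2, 2 and 4 (wild-type pairs) or 1, 1 and 1 (knockout-labelled pairs) for the difference. Leaving out 1 array gave 0 to 1 members called in the wild type and 0 to 5 for genotype after ischemia. Over all genes the block within genotype moved the calls from 2 to 570 (wild type), 0 to 99 (knockout-labelled) and 0 to 47 (difference). These paired counts became 143, 488 and 248 in the wild type without pair 1, 2 or 3, and 753, 4 and 2 in the knockout-labelled arrays. For the difference they became 26, 30 and 49 without wild-type pair 1, 2 or 3, and 25, 20 and 27 without knockout-labelled pair 1, 2 or 3. The block shared by both genotypes gave 3, 1 and 0, and moved genotype in control from 9 to 31 and genotype after ischemia from 109 to 236. Without pairing, leaving out 1 array gave 1 to 79, 0 to 0, 0 to 23, 25 to 95 and 0 to 1 for wild type, knockout-labelled, genotype in control, genotype after ischemia and difference, and fitting only the arrays compared gave 1 in the wild type and 0 for genotype in control. Quantile normalization gave 1 and 6 for these.

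Signs turned only for values near 0. The Oasl1 wild-type change was -0.0345 to 0.397 without 1 array and -0.0035 without pair 2. In the knockout-labelled arrays, without 1 array, Oas1a ran from -0.029 to 0.256 and Oas3 from -0.163 to 0.0759, and Oas3 was 0.0427 without pair 3. The Oasl1 difference in control cells ran from -0.0511 to 0.066. Of 547 member values under other settings, 491 kept direction and side of the threshold, 37 became called, 7 lost the call and 12 changed sign; the cause was not tested.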
